A study of Mus musculus with 11 samples.

Results

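A set of 10 genes of the NRF2 and glutathione defence were followed in the livers of AMLN *ob/ob*-MASH mice: *Nfe2l2*, *Nqo1*, *Gclc*, *Gclm*, *Gsr*, *Gpx1*, *Gpx4*, *Txnrd1*, *Srxn1* and *Hmox1*. They were taken by gene symbol from a table of read counts for 46603 genes, and all 10 were found. All animals were male, leptin-deficient B6.V-Lep ob/JRj (*ob/ob*) mice fed the AMLN diet (high in fat, in fructose and in cholesterol) from 5 to 6 weeks of age, for 15 weeks before treatment and during it. Over 8 weeks 4 mice were dosed orally each day with 10 mg/kg of INT-767, a dual agonist of the bile acid receptors FXR and TGR5, and 7 mice were given vehicle (carboxymethyl cellulose). Every mouse had a liver biopsy before treatment, no lean or chow-fed animals were in this table, and each sample was unsorted tissue from the left lateral lobe. In such bulk samples, fewer cells of a type and less RNA per cell cannot be told apart.

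NRF2, the product of *Nfe2l2*, is a transcription factor that KEAP1 keeps at a low level by marking it for degradation. Oxidants and electrophiles block KEAP1, so that NRF2 protein builds up and binds antioxidant response elements, often without a change in its own mRNA. Its targets make and recycle glutathione, reduce peroxides, run the thioredoxin system and break down heme and quinones, work that is heavy in a liver with steatohepatitis.

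The libraries held between 7966963 and 15295230 counts in the 7 vehicle mice and between 7381211 and 16022459 in the 4 INT-767-treated mice. Levels are given as CPM, the counts of a gene relative to the library total after scaling by TMM factors, and the groups were compared by edgeR's quasi-likelihood test over the 13880 genes that passed its filter on low counts. All adjusted *p* below are from this test, adjusted by Benjamini-Hochberg over those genes. All 10 defence genes passed the filter. A set of 4 libraries stood apart from the rest: in vehicle mice 1 and 7 and INT-767 mice 2 and 4, deviations from the mean of all libraries fell with transcript length across genes (Spearman's rho between -0.31 and -0.18), while in the other 7 they rose (rho between 0.09 and 0.30). Mitochondrial transcripts made up 5.37% to 7.80% of the counts in these 4 libraries and 3.89% to 6.11% in the other 7. Signs of this kind also differed between the groups. Mitochondrial transcripts made up 5.35% to 7.80% of the counts with INT-767 and 3.89% to 6.63% with vehicle. Deviations fell with GC content in all 4 INT-767 libraries (rho between -0.26 and -0.06), while in the vehicle libraries rho was between -0.42 and 0.44 and positive in 5 of 7. Across all tested genes, which are not independent replicates, the log2 fold change of INT-767 over vehicle had a rho of -0.30 with GC content and -0.24 with transcript length. The cause was not tested. Results are therefore also given without these 4 libraries, which leaves 5 vehicle and 2 INT-767-treated mice. In those mice rho with GC content was 0.02 to 0.44 with vehicle and -0.06 and -0.16 with INT-767. Mitochondrial transcripts made up 3.89% to 4.99% of their counts with vehicle and 6.11% and 5.35% with INT-767. Both signs split fully by group there, so this subset cannot tell treatment from them.

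By edgeR, 3 of the 10 genes differed between the groups at an adjusted *p* under 0.05. *Gclm*, the modifier subunit of the enzyme that starts glutathione synthesis, was higher with INT-767, beside 5.04% of all tested genes. *Hmox1*, which breaks down heme, and *Srxn1*, which repairs overoxidized peroxiredoxins, were lower, beside 4.68% of all tested genes. The same 3 genes were those whose values did not overlap between the groups. INT-767-treated mice lay wholly above vehicle in 1 of the 10, against 3.87% of all tested genes, and wholly below in 2 of the 10, against 3.65%. *Nfe2l2* itself and *Nqo1*, a widely used readout of its activity, did not pass the test. Without the 4 libraries that fell with transcript length, the genes called were again *Gclm*, *Hmox1* and *Srxn1*. In that subset the groups also differed in GC trend and mitochondrial share.

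**Figure D1:**
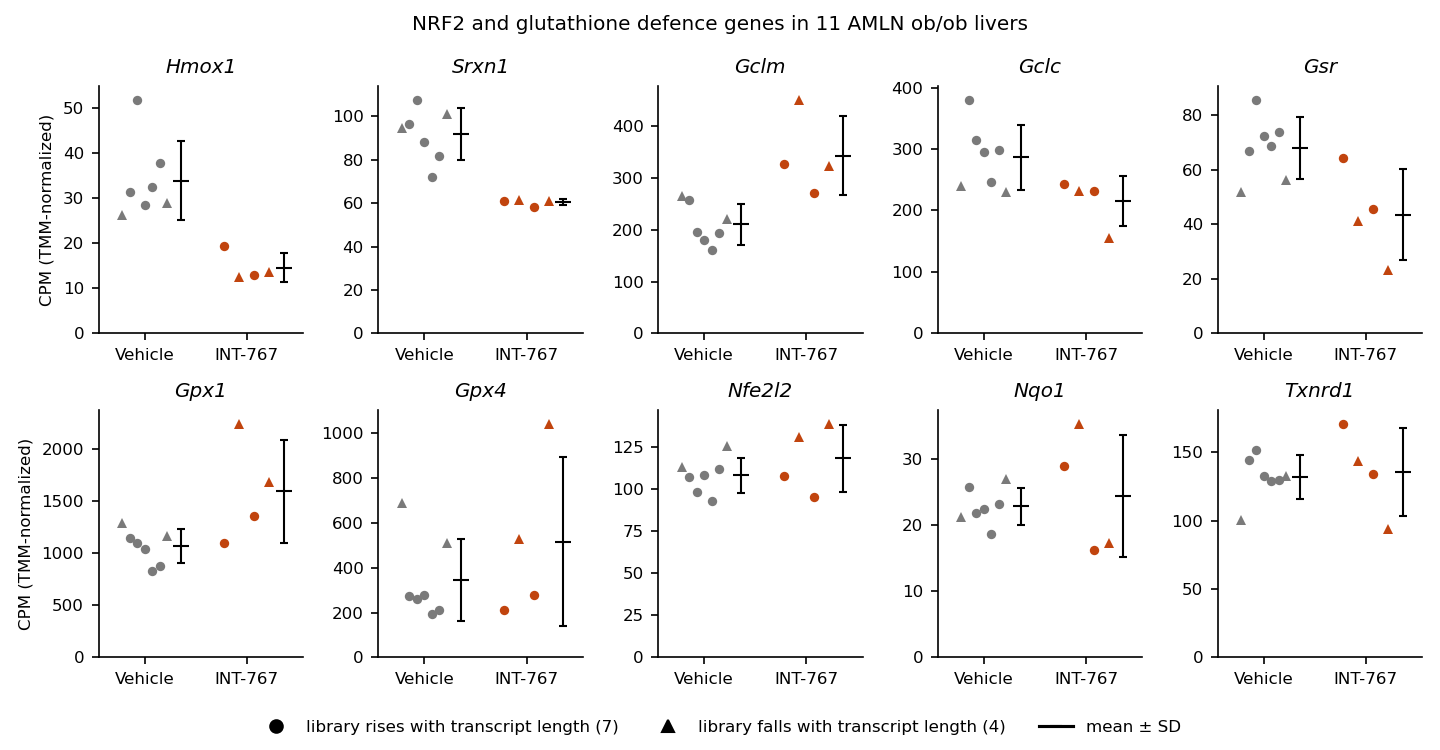
Level of each of the 10 genes in CPM (vertical axes, starting at 0) in 7 vehicle and 4 INT-767-treated livers, 1 point per mouse, with triangles for the 4 libraries whose deviations fell with transcript length and bars for mean ± SD. *Hmox1* and *Srxn1* of all 4 INT-767-treated mice lie below the vehicle mice and *Gclm* above them, and the triangles of *Gpx4* lie above the circles of both groups.

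Of the 10 genes, 7 had promoter sequence in the RefSeq table (GRCm38.p6), and *Gclc*, *Gsr* and *Hmox1* had no entry. The 250 bases before each start were searched on both strands for the core of the antioxidant response element, TGACNNNGC, which 10.2% of 32841 promoters held. It occurred before *Gclm*, which was higher, and before *Nfe2l2* and 1 start of *Txnrd1*, which did not pass the test. The AP-1 element TGACTCA, which can overlap the core when GC follows it, occurred in 4.46% of all promoters and, among the 7 genes, before *Srxn1* at 2 places, neither within a core. The matches are given on the strand of the gene in capitals, with up to 25 bases on either side, because they set the called genes *Gclm* and *Srxn1* beside genes that were not called. In *Gclm*, *Txnrd1* and *Srxn1* the match is on the opposite strand and reads as its reverse complement. A match in these letters is a description of the sequence, and no binding was measured. Elements in other letters or outside the 250 bases were not sought. On the gene strand, the second *Srxn1* match with the gc after it differs from the core only at the fourth base.
*Gclm*, 134 to 126 bases before the start, core, chr3:122245398-122245456, plus strand: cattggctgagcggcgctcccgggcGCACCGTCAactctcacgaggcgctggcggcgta
*Nfe2l2*, 240 to 232 bases before the start, core, chr2:75704870-75704913, minus strand: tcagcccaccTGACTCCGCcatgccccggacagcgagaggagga
*Txnrd1*, 92 to 84 bases before the second listed start, core, chr10:82859089-82859147, plus strand: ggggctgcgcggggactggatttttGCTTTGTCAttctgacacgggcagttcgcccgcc
*Srxn1*, 102 to 96 bases before the start, AP-1, chr2:152105397-152105453, plus strand: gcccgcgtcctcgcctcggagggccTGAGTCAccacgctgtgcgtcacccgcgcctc
*Srxn1*, 45 to 39 bases before the start, AP-1, chr2:152105454-152105510, plus strand: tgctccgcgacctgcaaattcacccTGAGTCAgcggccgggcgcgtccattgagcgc

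To compare levels between genes, counts were divided by the length of each gene's merged exons (RPKM, which is CPM per kilobase). In vehicle livers the order of the mean RPKM was *Gpx1* (740), *Gpx4* (200), *Gclc* (76.1), *Gclm* (33.5), *Srxn1* (32.5), *Nfe2l2* (28.4), *Gsr* (24.6), *Hmox1* (19.3), *Txnrd1* (18.6) and *Nqo1* (14.7). The first 3 each lay above the whole range of the next gene, and from *Gclm* downwards each gene overlapped its neighbour. In INT-767-treated livers *Gpx1* (1107 RPKM), *Gpx4* (298 RPKM) and *Gclc* (57.2 RPKM) again led. *Gclm* (54.6 RPKM) then stood close to *Gclc*, and *Hmox1* (8.35 RPKM) was last instead of eighth.

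*Nfe2l2* (ENSMUSG00000015839, GRCm38 chr2:75675513-75704641, minus strand) had between 92.7 and 125 CPM in vehicle livers, with a median of 108 CPM. The INT-767-treated mice 1 to 4 had 107, 131, 95.2 and 138 CPM. The groups overlapped, with 2 INT-767-treated mice above all vehicle mice and 2 within their range. Means were 108 ± 10.5 CPM (SD, n = 7) and 118 ± 20.1 CPM (SD, n = 4), a log2 fold change of 0.13 (interval of 1.96 SE on either side -0.15 to 0.40, adjusted *p* = 0.523). Both higher mice, INT-767 mice 2 and 4, were among the libraries that fell with transcript length, and without those libraries the log2 fold change was -0.02. The value was -0.09 when the counts were scaled by library size only. mRNA levels do not report the NRF2 protein, which is regulated mainly by degradation.

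*Nqo1* (ENSMUSG00000003849, chr8:107388225-107403206, minus strand) encodes a quinone reductase. It ranged from 18.7 to 27.0 CPM in vehicle livers (median 22.5 CPM) and was 28.9, 35.2, 16.2 and 17.3 CPM in INT-767 mice 1 to 4. INT-767 mice 1 and 2 lay above every vehicle mouse and mice 3 and 4 below every one, so that the group was split to either side. The log2 fold change was 0.09 (interval -0.32 to 0.51, adjusted *p* = 0.766), between means of 22.9 ± 2.79 CPM (SD, n = 7) and 24.4 ± 9.23 CPM (SD, n = 4). It was -0.12 when counts were scaled by library size only, -0.08 with an offset for GC content and transcript length, and -0.14 without INT-767 mouse 2. The libraries of INT-767 mice 1 and 3 rose with transcript length and those of mice 2 and 4 fell, so the split of *Nqo1* did not follow that difference. After the group means were taken out, the 5 genes whose log2 CPM followed *Nqo1* most closely over the 11 mice were *Wdr75* (Pearson's r 0.95), *Dnajb4* (0.94), *Idh3b* (0.93), *Nbn* (0.92) and *Mreg* (0.90), a description over mice whose libraries also differ in depth and composition.

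Glutathione synthesis begins with glutamate-cysteine ligase, made of the catalytic subunit GCLC and the modifier subunit GCLM. *Gclm* (ENSMUSG00000028124, chr3:122245557-122270732, plus strand) ranged from 160 to 265 CPM in vehicle livers with a median of 196 CPM. INT-767 mice 1 to 4 had 328, 451, 271 and 324 CPM. All 4 lay above the highest vehicle mouse, with mouse 3 close to it and mouse 2 well above the rest. Means of 211 ± 39.3 CPM (SD, n = 7) and 343 ± 76.0 CPM (SD, n = 4) gave a log2 fold change of 0.71 ± 0.18 (SE, adjusted *p* = 0.0307), and by an exact Mann-Whitney test (two-sided) *p* was 0.00606, the smallest that 4 against 7 mice allow. The direction held within both kinds of library, with a log2 ratio of means of 0.60 in the 7 that rose with length and 0.67 in the 4 that fell. The call was less firm than the direction: the adjusted *p* was 0.0608 with library size only, between 0.058 and 0.0673 when 1 of vehicle mice 3 to 6 was left out, and 0.145 without INT-767 mouse 2, where the log2 fold change was 0.53. Its promoter held the antioxidant response element core printed above. A small share of the exons of *Gclm* (4.71%) overlaps *Gm17494* on the other strand, and the strand setting of the counting is not given in the sources used here.

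*Gclc* (ENSMUSG00000032350, chr9:77754535-77794485, plus strand) was not called. Its level was 230 to 380 CPM in vehicle livers (median 296 CPM) and 242, 232, 232 and 155 CPM in INT-767 mice 1 to 4. Of these values 3 lay near the lowest vehicle mice and mouse 4 lay below all of them. The log2 fold change was -0.41 (interval -0.77 to -0.06, adjusted *p* = 0.137), and the exact Mann-Whitney test gave *p* = 0.0727. It was negative in every alternative tried, between -0.61 and -0.29.

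The subunits therefore had opposite signs, and their ratio, a measure chosen after these values were seen, was compared mouse by mouse. Per kilobase of exon, vehicle livers had between 0.364 and 0.661 *Gclm* for each *Gclc* (median 0.390). INT-767 mice 1 to 4 had 0.809, 1.16, 0.701 and 1.25. The groups did not overlap, and the highest vehicle ratios, 0.661 and 0.575, were those of mice 1 and 7. The mean ratio rose from 0.451 ± 0.118 (SD, n = 7) to 0.980 ± 0.266 (SD, n = 4), 2.17-fold higher with INT-767. No test is given, since the ratio was formed from the opposite signs of the subunits. The ratio also moved with the kind of library: within the 7 libraries that rose with length, INT-767-treated mice (0.809 and 0.701) were above vehicle mice (0.364 to 0.407), and within the 4 that fell, 1.16 and 1.25 were above 0.661 and 0.575. Leaving out any 1 mouse gave between 1.97-fold and 2.38-fold.

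**Figure D2:**
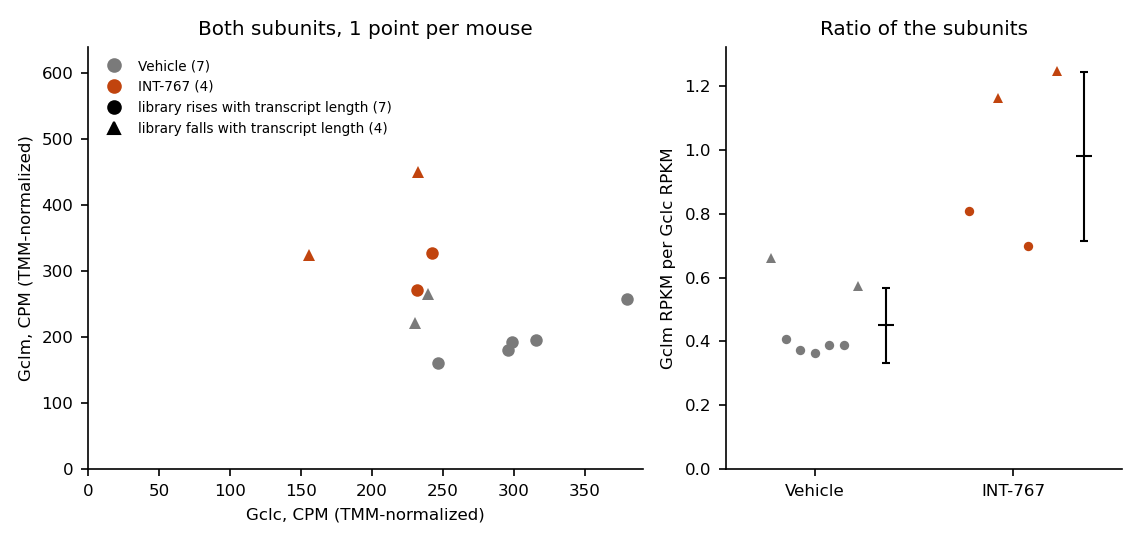
Left, *Gclm* against *Gclc* in CPM, 1 point per mouse (grey, 7 vehicle; red, 4 INT-767), and right, the ratio of their RPKM by group with mean ± SD, both on axes from 0. INT-767-treated mice have more *Gclm* at the same or lower *Gclc*, with ratios of 0.701 to 1.25 against 0.364 to 0.661 with vehicle, and triangles mark the 4 libraries that fell with transcript length, which have the higher ratios in both groups.

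*Gsr* (ENSMUSG00000031584, chr8:33652523-33698163, plus strand) encodes the reductase that restores glutathione from its oxidized form. Vehicle livers had 51.9 to 85.5 CPM (median 68.6 CPM), and INT-767 mice 1 to 4 had 64.0, 41.2, 45.6 and 23.2 CPM. In this gene 3 of the 4 lay below every vehicle mouse and mouse 1 lay among them. The log2 fold change was -0.64 ± 0.24 (SE) with an adjusted *p* of 0.0909, so that *Gsr* was not called, while the exact Mann-Whitney test on this gene alone gave *p* = 0.0242. The adjusted *p* was 0.0337 without INT-767 mouse 1, with a log2 fold change of -0.89, and 0.0161 with the kind of library as a term. Within kinds, the log2 ratio of means was -0.42 in the libraries that rose with length and -0.75 in those that fell. Without INT-767 mouse 4, the lowest of all, the log2 fold change was -0.44.

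*Gpx1* (ENSMUSG00000063856, chr9:108338903-108340343, plus strand), the abundant cytosolic glutathione peroxidase, ranged from 833 to 1291 CPM in vehicle livers (median 1099 CPM). In INT-767 mice 1 to 4 it was 1094, 2240, 1357 and 1688 CPM. Mouse 1 lay at the vehicle median and the other 3 above the vehicle range. Its log2 fold change of 0.58 ± 0.20 (SE) did not pass the test (adjusted *p* = 0.0769). It passed without vehicle mouse 1 (0.63, adjusted *p* = 0.0432), without INT-767 mouse 1 (0.73, adjusted *p* = 0.037), with the kind of library as a term (0.45, adjusted *p* = 0.0382) and in DESeq2 (0.59, adjusted *p* = 0.0314). It was 0.36 both without INT-767 mouse 2 (adjusted *p* = 0.299) and with library size only (adjusted *p* = 0.162). Without the 4 libraries that fell with transcript length it was 0.30, with an adjusted *p* of 0.284.

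*Gpx4* (ENSMUSG00000075706, chr10:80047166-80056439, plus strand) encodes the peroxidase that reduces lipid hydroperoxides in membranes and guards against ferroptosis. Vehicle livers had 195 to 690 CPM with a median of 275 CPM, and INT-767 mice 1 to 4 had 209, 529, 278 and 1040 CPM. Here the mice divided by kind of library and not by treatment. The kinds were themselves set by trends with transcript length over all tested genes. For a short transcript this division is therefore not an independent observation. The 4 libraries that fell with transcript length held the 4 highest values, 690 and 508 CPM with vehicle and 529 and 1040 CPM with INT-767, and all others were at or below 279 CPM. The log2 fold change was 0.57 ± 0.45 (SE, adjusted *p* = 0.365), it was 0.01 without those 4 libraries, and without INT-767 mouse 4 alone it was -0.03. The transcript is short, at 995 bases for the longest, and 29.8% of its 75-base windows also occur in the pseudogene *Gpx4-ps2*, so that its count is uncertain. The log2 CPM of 1478 of the other 13879 tested genes followed *Gpx4* with Pearson's r over 0.9 across the 11 mice after the group means were taken out, against 5 such genes for *Nqo1*, a comparison chosen after the values were seen.

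The thioredoxin system reduces protein disulfides and peroxiredoxins alongside glutathione. *Txnrd1* (ENSMUSG00000020250, chr10:82833951-82897712, plus strand), the cytosolic thioredoxin reductase, had 100 to 151 CPM in vehicle livers (median 133 CPM) and 171, 144, 134 and 93.7 CPM in INT-767 mice 1 to 4. Mouse 1 lay above and mouse 4 below the vehicle range, with the others inside it. The log2 fold change was 0.04 (interval -0.29 to 0.37, adjusted *p* = 0.871). Its sign was not stable, at -0.16 with library size only and 0.15 without the 4 libraries that fell with length.

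*Srxn1* (ENSMUSG00000032802, chr2:152105516-152111376, plus strand) encodes sulfiredoxin, and its promoter held the 2 AP-1 matches but no core in the letters searched. Vehicle livers ranged from 72.1 to 108 CPM (median 94.7 CPM), and the 4 INT-767-treated mice had 61.1, 61.5, 58.4 and 60.8 CPM. All 4 lay below the lowest vehicle mouse and within a narrow band, and their SD of 1.37 CPM was the smallest of the 10 genes in this group. Means of 91.7 ± 12.04 CPM (SD, n = 7) and 60.4 ± 1.37 CPM (SD, n = 4) gave a log2 fold change of -0.60 ± 0.13 (SE, adjusted *p* = 0.0193). The exact Mann-Whitney test gave *p* = 0.00606. The log2 ratio of means was -0.58 in the libraries that rose with length and -0.68 in those that fell. *Srxn1* was not called without INT-767 mouse 2 (-0.62, adjusted *p* = 0.0731) or without a filter on low counts (-0.60, adjusted *p* = 0.0576).

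*Hmox1* (ENSMUSG00000005413, chr8:75093621-75100589, plus strand), the inducible heme oxygenase, is a target of NRF2 that BACH1 represses, and is abundant in macrophages that clear red cells. Vehicle livers had 26.2 to 51.8 CPM with a median of 31.3 CPM. INT-767 mice 1 to 4 had 19.4, 12.6, 12.95 and 13.6 CPM. All 4 lay below every vehicle mouse, mouse 1 nearest to them. Between 33.9 ± 8.70 CPM (SD, n = 7) and 14.6 ± 3.20 CPM (SD, n = 4) the log2 fold change was -1.21 ± 0.21 (SE, adjusted *p* = 0.00689), to 0.433 of the vehicle level, and the exact Mann-Whitney test gave *p* = 0.00606. Of the 10 genes this was the largest change in size. It was called without any 1 mouse (-1.37 to -1.08) and without the 4 libraries that fell with length (-1.14, adjusted *p* = 0.0168).

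**Figure D3:**
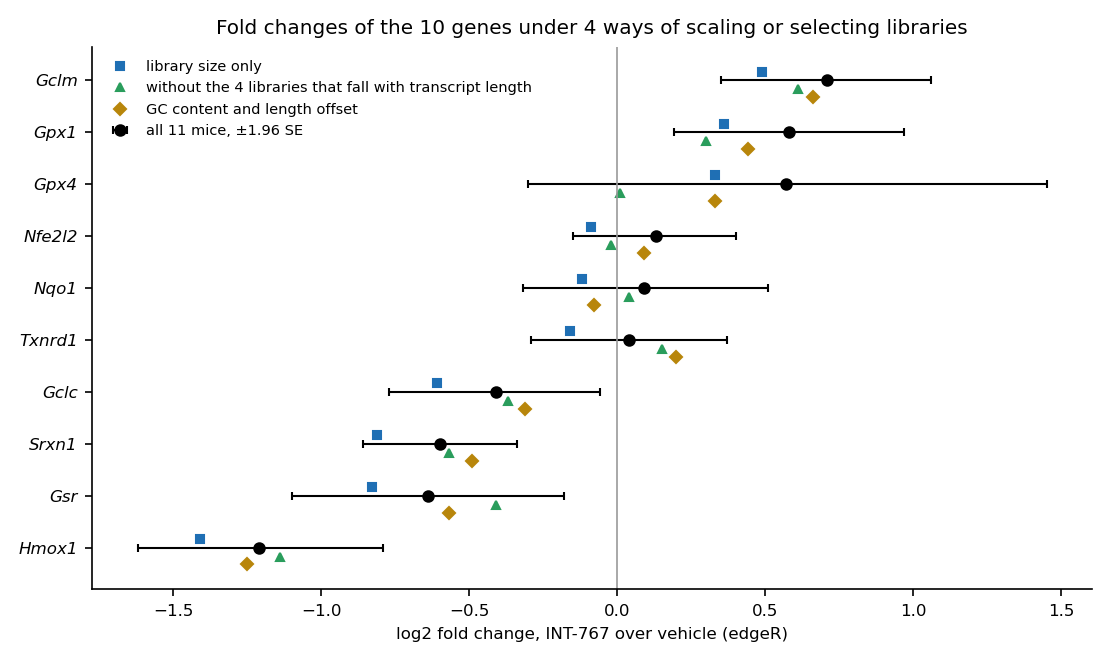
Log2 fold change of INT-767 over vehicle for the 10 genes (horizontal axis), with black points and bars for the edgeR fit on all 11 mice ± 1.96 SE, and coloured points for 3 alternatives. *Hmox1* (-1.21), *Srxn1* (-0.60) and *Gclm* (0.71) keep their side of 0 in all 4, while *Nfe2l2*, *Nqo1* and *Txnrd1* cross it and *Gpx4* moves to 0.01 without the 4 libraries that fell with transcript length.

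Some macrophage markers were lower together with *Hmox1*. Of 11 tested macrophage markers, 2 were lower and none higher with INT-767: *Csf1r*, the receptor for macrophage colony-stimulating factor (-1.14 on the log2 scale, adjusted *p* = 0.00498), and *Cd68*, a lysosomal protein of phagocytes (-1.16, adjusted *p* = 0.00943). The median log2 fold change of the 11 was -0.93, beside -0.01 over all tested genes. The summed level of the 12 markers was 655 to 906 CPM in vehicle livers and 414, 415, 337 and 886 CPM in INT-767 mice 1 to 4. The high sum of INT-767 mouse 4 came mostly from *Cd5l* (404 CPM), *Clec4f* (150 CPM) and *Lgals3* (136 CPM), while its *Csf1r* (53.7 CPM) and *Cd68* (15.4 CPM) lay below the lowest vehicle values of 72.9 and 21.3 CPM. The most abundant macrophage marker, *Cd5l*, a secreted protein of Kupffer cells, was at 174 to 283 CPM with vehicle and at 147, 173, 137 and 404 CPM in INT-767 mice 1 to 4, so that 3 of them lay below every vehicle mouse. No marker was at 0 in all mice. The part of macrophages in the fall of *Hmox1* was not tested.

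Some markers of other cell types also differed. Of 10 stellate cell and myofibroblast markers 3 were lower, the collagen genes *Col1a1* (-2.96, adjusted *p* = 0.0297) and *Col1a2* and the growth factor receptor *Pdgfrb* (-1.31), and the summed level (most abundant gene *Col3a1*) was 410 to 1462 CPM in vehicle mice and 317, 153, 336 and 384 CPM in INT-767 mice 1 to 4, with no overlap. Collagen transcripts weigh heavily in this sum, with vehicle means of 289 CPM for *Col3a1* and 158 CPM each for *Col1a1* and *Col1a2*. The other 7 markers were not called, among them *Lrat* (0.05), *Tagln* (-0.31), *Des* (-0.47) and *Acta2* (-0.63), and the median of the list was -0.88. *Col1a1* and *Pdgfrb* were each called in 5 of the 11 fits that left out 1 mouse, and *Col1a2* in 7. *Col1a1* was not called without the 4 libraries that fell with transcript length (-2.94, adjusted *p* = 0.0658), and neither collagen gene was called without a filter on low counts (adjusted *p* = 0.0743 and 0.062). Hepatocyte markers, led by *Alb*, summed to 52987 to 70042 CPM with vehicle and to 100340, 100925, 83417 and 56259 CPM with INT-767, and 1 of 10, *Asgr2*, was higher (1.10). Of 3 tested neutrophil markers *Csf3r* was lower (-1.49, adjusted *p* = 0.0173), *S100a8* and *S100a9* were not called (0.31 and 0.46), and the median was 0.31. Without INT-767 mouse 2 neither *Asgr2* (0.96, adjusted *p* = 0.0522) nor *Csf3r* (-1.32, adjusted *p* = 0.0701) was called. None of the tested markers of sinusoidal endothelium (8), cholangiocytes (8), lymphocytes (7) or red cells (6) was called. The medians of these lists were -0.24, -0.62, -0.26 and 0.12. The part of cell composition in the values of the 10 genes was not tested.

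The 10 genes were set beside 10 lists of redox genes that together held 133 genes, of which 127 were tested. Among these, 17 were higher and 5 lower with INT-767 at an adjusted *p* under 0.05, beside 5.04% and 4.68% of all tested genes, and the median log2 fold change was 0.07, beside -0.01 over all tested genes. None of the 10 regulators of the pathway was called. *Keap1* had a log2 fold change of -0.20 (adjusted *p* = 0.448), *Sqstm1*, which sequesters KEAP1, -0.08, and the related factor *Nfe2l1* -0.09. The number of calls rested in part on INT-767 mouse 2, without which the lists held 4 higher genes (*Gsta2*, *Gsta4*, *Gstm3* and *Nox4*) and 3 lower genes. With library size only they held 8 higher and 10 lower genes, and *Gclm*, *Chac2*, *Txn2*, *Sod2*, *Tkt*, *Hmox2*, *Slc40a1*, *Gsta3* and *Scly* were not called. *Chac2*, *Txn2* and *Tkt* were also not called with upper-quartile factors, without a filter on low counts or by limma-voom, *Slc40a1* not with upper-quartile factors, and *Sod2* not without the filter.

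Around glutathione synthesis, 3 of 16 tested genes were higher and none lower. Besides *Gclm* these were *Cth*, which makes cysteine from cystathionine, and *Chac2*, which breaks glutathione down. *Cth* had between 105 and 446 CPM in vehicle livers (median 134 CPM) and 552, 1212, 383 and 1100.4 CPM in INT-767 mice 1 to 4, so that only mouse 3 lay within the vehicle range. On the log2 scale the change was 1.94 ± 0.43 (SE, adjusted *p* = 0.0193), and it was not called without INT-767 mouse 2 (1.66, adjusted *p* = 0.0877). *Chac2* had a log2 fold change of 1.38 (adjusted *p* = 0.0435) and was called in 4 of the 11 fits that each left out 1 mouse. Without INT-767 mouse 4 its log2 fold change was 0.90 (adjusted *p* = 0.15). *Gss*, which completes glutathione, was at 0.15 (adjusted *p* = 0.653), and *Slc7a11*, which imports cystine, was at -0.19 (adjusted *p* = 0.766) with no more than 1.98 CPM in any mouse. The median of the 16 was -0.13.

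Rises of over 2 on the log2 scale were found among the conjugating enzymes. Of 24 other NRF2 targets, 4 were higher and none lower, and all 4 were glutathione S-transferases, which attach glutathione to electrophiles. The other glutathione S-transferases of this list were not called: *Gsta1* (0.65), *Gstm1* (0.73), *Gstm2* (0.54), *Gstm4* (0.02), *Gstp1* (-0.11) and *Mgst1* (0.17). *Gsta4*, which clears the lipid peroxidation product 4-hydroxynonenal, had 23.5 to 51.4 CPM in vehicle livers (median 37.6 CPM) and 258, 218, 147 and 61.2 CPM in INT-767 mice 1 to 4. All 4 lay above vehicle, mouse 4 only just. On the log2 scale it rose by 2.21 ± 0.31 (SE, adjusted *p* = 0.00318). *Gsta2* (2.27, adjusted *p* = 0.00664), *Gstm3* (2.16, adjusted *p* = 0.0109) and *Gsta3* (0.76, adjusted *p* = 0.0206) followed, and in each of these 4 genes mouse 4 had the lowest value of the INT-767-treated mice. Of the 75-base windows of *Gsta2*, 36.6% occur in other genes (25.4% in *Gsta1*), and 21.6% of the windows of *Gstm3* do, so that their counts are uncertain. *Gsta4*, *Gsta2* and *Gstm3* were called without any 1 mouse, although in *Gstm3* INT-767 mouse 4 (295 CPM) lay within the vehicle range of 146 to 451 CPM. *Gsta3* was not called without vehicle mouse 6 (adjusted *p* = 0.0502) or INT-767 mouse 2 (0.58, adjusted *p* = 0.107), with library size only (0.55, adjusted *p* = 0.0555) or with the offset for GC content and length (0.36, adjusted *p* = 0.316). The median of the 24 was 0.16.

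Among glutathione reductase, peroxidases and glutaredoxins, 1 of 12 was called. *Gpx2*, an epithelial peroxidase, was at 0.374 to 2.63 CPM in vehicle livers (median 0.880 CPM) and at 14.04, 6.22, 4.93 and 2.32 CPM in INT-767 mice 1 to 4, a log2 fold change of 2.46 ± 0.52 (SE, adjusted *p* = 0.0148). Only mouse 4 lay within the vehicle range. The value was 1.81 without INT-767 mouse 1, and *Gpx2* was not called without INT-767 mouse 2 (adjusted *p* = 0.0503). In the thioredoxin and peroxiredoxin list, the mitochondrial thioredoxin *Txn2* was higher (0.58, adjusted *p* = 0.0434) and *Srxn1* lower, and the other 10 of 12 were not called. *Sod2*, the mitochondrial superoxide dismutase, was the 1 called gene of 5 in its list (0.53, adjusted *p* = 0.029), although 16.2% of its 75-base windows also occur in other genes. In both *Txn2* and *Sod2* the groups did not overlap. Of the 11 fits that left out 1 mouse, *Txn2* was called in 4 and *Sod2* in 7, and neither was called without INT-767 mouse 2 or without the 4 libraries that fell with transcript length. Of 10 genes that supply NADPH, *Tkt* of the pentose phosphate pathway was higher (0.63, adjusted *p* = 0.0381), with a call in 3 of the 11 fits that left out 1 mouse, and was not called without the 4 libraries that fell with transcript length (0.30, adjusted *p* = 0.196).

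Of 10 tested genes of heme and iron handling and quinone reduction, *Hmox1* was lower, *Hmox2*, the constitutive heme oxygenase, and *Slc40a1*, the iron exporter ferroportin, were higher, and 7 were not called. *Hmox2* had 26.3 to 33.5 CPM in vehicle livers (median 29.2 CPM) and 41.0, 50.2, 42.1 and 42.3 CPM in INT-767 mice 1 to 4, all above vehicle. On the log2 scale the rise was 0.58 ± 0.12 (SE, adjusted *p* = 0.0131), but 40.2% of its exon bases overlap *Cdip1* on the other strand, so that its counts may hold reads of that gene. *Hmox2* was not called with library size only (0.36, adjusted *p* = 0.0663) or without INT-767 mouse 2 (0.49, adjusted *p* = 0.0751). *Slc40a1* had a log2 fold change of 0.78 (adjusted *p* = 0.0416), was called in 4 of the 11 fits that left out 1 mouse, and was not called without the 4 libraries that fell with length (0.70, adjusted *p* = 0.0633).

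*Gpx1*, *Gpx4* and *Txnrd1* are selenoproteins, whose synthesis inserts selenocysteine. Of 28 tested genes of selenoproteins and this machinery, 4 were higher and 1 lower. *Sephs2*, which makes the selenium donor (0.73, adjusted *p* = 0.012), *Scly*, which recovers selenium from selenocysteine (0.58, adjusted *p* = 0.0159), and *Sepsecs*, which charges the selenocysteine tRNA (0.84, adjusted *p* = 0.0247), were higher in all 4 INT-767-treated mice than in any vehicle mouse. Without INT-767 mouse 2 none of these 3 was called (adjusted *p* between 0.0707 and 0.0931), *Scly* was not called with library size only (0.37, adjusted *p* = 0.0794) or without a filter on low counts (adjusted *p* = 0.0518), and *Sepsecs* was not called without vehicle mouse 5 or 6 or INT-767 mouse 4 either (adjusted *p* between 0.0512 and 0.0605). The fourth was *Gpx2*. *Sephs2* overlaps *Gm44729* on the other strand over 36.4% of its exon bases. *Dio1*, the thyroid hormone deiodinase, was lower, with 92.3 to 196 CPM in vehicle livers (median 120 CPM) and 11.6, 15.2, 38.4 and 77.2 CPM in INT-767 mice 1 to 4, a log2 fold change of -1.83 ± 0.45 (SE, adjusted *p* = 0.0285). No INT-767-treated mouse reached the vehicle range. The value was -2.55 without INT-767 mouse 4, and *Dio1* was not called without vehicle mouse 5 (adjusted *p* = 0.0504) or INT-767 mouse 2 (-1.60, adjusted *p* = 0.0942).

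NADPH oxidases make the superoxide that this defence meets. Among the tested genes, *Nox4* was higher, with 22.5 to 41.7 CPM in vehicle livers (median 28.6 CPM) and 71.4, 131, 71.1 and 83.3 CPM in INT-767 mice 1 to 4, a log2 fold change of 1.60 ± 0.21 (SE, adjusted *p* = 0.00262). *Cybb*, the catalytic subunit of the phagocyte oxidase, was lower (-0.83, adjusted *p* = 0.0103). In *Nox4* and *Cybb* the groups did not overlap, and each was called without any 1 mouse. The fall of *Cybb* stood beside that of *Csf1r* and *Cd68* above. The part of macrophages in it was not tested.

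**Figure D4:**
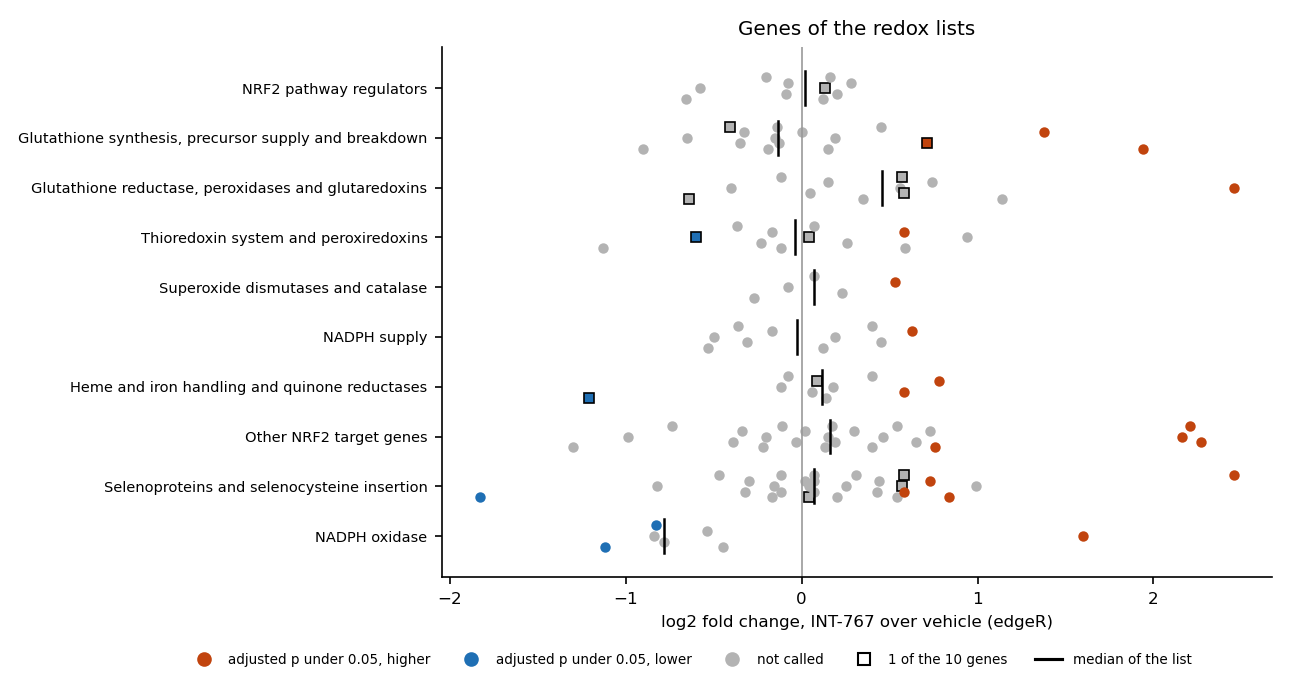
Log2 fold change of INT-767 over vehicle (horizontal axis) of the tested genes of 10 redox lists, with squares for the 10 genes, red and blue for genes called higher and lower by edgeR at an adjusted *p* under 0.05, grey for genes not called, and a black line for the median of each list. A gene in several lists is drawn in each, most genes lie within 1 of 0, and the largest values to the right, above 2, are *Gpx2* (drawn in 2 lists), *Gsta2*, *Gsta4* and *Gstm3*.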

How the data were processed

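Liver RNA of 7 vehicle and 4 INT-767-treated mice, grouped by the sample labels, was sequenced by the authors from stranded mRNA libraries (NextSeq 500, 75 cycles). The authors deposited counts per gene, without normalization. STAR 2.4.0 and GRCm38 are named in the submitters' processing notes, while the supplementary methods name another STAR version and Ensembl 84. Nothing about the counting program, its strand setting or batches is given in the sources used here.

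Genes were tested in edgeR 4.0.16 (R 4.3.3) with TMM factors, filterByExpr (minimum count 10, minimum total count 15) and glmQLFit (robust), with treatment as the only term and a threshold of 0.05 on the Benjamini-Hochberg adjusted *p*. For single genes, a two-sided exact Mann-Whitney test enumerated all 330 assignments of the 11 mice. RPKM used merged exons of GENCODE M21. Intervals are 1.96 SE and cover the spread between these mice. The members and lists were chosen with earlier results of these data known. Named were the 10 genes, up to 6 called genes of each list by smallest *p* (in lists without a call the 2 most abundant), *Keap1*, *Slc7a11*, *Gss* and the 5 genes most like *Nqo1*. *Cd5l*, *Clec4f*, *Lgals3*, *S100a8*, *S100a9*, *Lrat*, *Tagln*, *Des* and *Acta2* were chosen after their values were seen. Some genes that this rule names are not reported here.

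Alternatives were upper-quartile factors, RLE factors, library size only, keeping all genes with 1 count, limma-voom (limma 3.58.1), DESeq2 1.42.0, a replicate block, a GC content and length offset, a threshold of 0.01 and leaving out each mouse. Leaving out the 4 libraries that fell with transcript length (rho under -0.15) and a term for them were chosen after seeing the data. On simulated data with 200 of 13880 genes changed (log2 change of 2), the share edgeR recovered was 96.5%, with 7 others called. No libraries were copies of each other.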

Additional observations from a re-analysis of the deposited data

Results flagged for a closer look

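In each of the 10 genes the highest and the lowest CPM of each group were checked for a value far from the others of its group (20 groups, of which chance alone would single out about 1 in 20). In *Hmox1*, INT-767 mouse 1 had 19.4 CPM, where the nearest other INT-767-treated mouse had 13.6 CPM, a gap of 0.855 of the group's range. In *Gclc*, INT-767 mouse 4 had 155 CPM, where the nearest had 232 CPM, a gap of 0.877 of the range. Without INT-767 mouse 1 the log2 fold change of *Hmox1* was -1.37, and without INT-767 mouse 4 that of *Gclc* was -0.29.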

How the results depend on the processing

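Over all genes the main test gave 700 higher and 649 lower, among the 10 genes 1 and 2, and among the redox lists 17 and 5. RLE factors, upper-quartile factors and limma-voom left the calls among the 10 genes as they were. With library size only, 331 genes were higher and 1026 lower, 0 of the 10 higher, and 8 and 10 of the lists, as the median log2 fold change of all genes moved to -0.22. Without a filter on low counts, 1 of the 10 was lower. DESeq2 gave 1443 and 1368, with 2 of the 10 higher and 13 of the lists lower, and the GC content and length offset gave 1073 higher and 9 of the lists lower. At a threshold of 0.01 there were 158 and 87, with 0 and 1 of the 10 and 3 and 2 of the lists. Without the 4 libraries that fell with transcript length, 10 of the lists were lower, and with the kind of library as a term 2039 and 1999 genes were called, 2 of the 10 were higher and 22 of the lists lower. Leaving out each mouse gave 164 to 1906 higher and 110 to 1370 lower genes, 0 to 2 and 1 to 3 of the 10, and 4 to 23 and 3 to 11 of the lists, with the lowest counts without INT-767 mouse 2 and the highest without vehicle mouse 1, except that the 3 lower of the 10 came without INT-767 mouse 1. Of the 10 genes, 4 had an exact Mann-Whitney p under 0.05, and 3 to 5 when 1 mouse was left out. The share of all genes under this exact test is not given here. By edgeR, 4573 of the 13880 tested genes had an unadjusted *p* under 0.05. The cause of the changes between settings was not tested.

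The replicate block, which joins mice of the same number in both groups, gave 0 higher and 0 lower genes by edgeR (1347 at an unadjusted *p* under 0.05), and 0 and 0 of the 10 genes and of the lists. Deviations of same-numbered mice correlated at -0.73, 0.24, 0.21 and -0.52 for numbers 1 to 4, so the mice share only a number.

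Signs turned in genes that were not called. With library size only *Nfe2l2* was at -0.09, *Nqo1* -0.12, *Txnrd1* -0.16 and *Gss* -0.07, and with upper-quartile factors *Txnrd1* -0.04. With the block *Cd79a* was at 0.04 and *Slc7a11* 0.11. With the GC content and length offset *Nqo1* was at -0.08, *Sqstm1* 0.01, *Nfe2l1* 0.18 and *Keap1* 0.06. Without the 4 libraries *Nfe2l2* was at -0.02, *Sqstm1* 0.08, *Hbb-bs* -0.31, *Gss* -0.02 and *Slc7a11* 0.09. Leaving out 1 mouse, ranges that crossed 0 were *Txnrd1* -0.08 to 0.18, *Nqo1* -0.14 to 0.25, *Gpx4* -0.03 to 0.84, *Gss* -0.14 to 0.30, *Slc7a11* -0.45 to 0.10, *Cd79a* -0.35 to 0.11 and *Hbb-bs* -0.07 to 0.64. *Slc7a11* was at under 2 CPM in every mouse, and the part of sequencing depth in these values was not tested.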
